A study of Mus musculus with 11 samples.

Results

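Dorsal root ganglia (DRGs) hold the cell bodies of sensory neurons and the satellite glial cells (SGCs) around them, yet the RNA-Seq libraries of mouse DRGs also carried reads of genes that belong to skeletal muscle fibres. Of the 36670 genes in the deposited table, 33 are described here. They were given as a list of symbols for the contractile filaments, the Z disc, the calcium store and the energy supply of muscle fibres, and each symbol matched 1 row. The list was chosen with earlier results of these data known. The series held 11 libraries of mice in 4 groups. The WT control group held 3 libraries, the WT group taken 4 weeks after paclitaxel (PTX) held 3, the *Gpr37l1* KO control group held 3 and the *Gpr37l1* KO group taken 4 weeks after PTX held 2. PTX is given against tumours and can damage sensory nerves. The KO strain, B6;129S5-*Gpr37l1*tm1Lex/Mmucd, lacks the SGC receptor GPR37L1 in all cells from the start of development, and it was kept with littermates on a C57BL/6 background as adult mice. In each group replicate 3 was labelled female and the others male. The labels do not say whether a library came from 1 mouse or from several, so p-values measure the spread between libraries. Controls were labelled only as such, and the paper calls the WT controls naive.

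A muscle fibre shortens when thick filaments of myosin pull on thin filaments of actin, and the fibre is built of repeating units, the sarcomeres, that are bounded by Z discs. Troponin on the thin filament is switched on by calcium, which the ryanodine receptor releases from an internal store and a calcium pump returns to it. Fibres differ in the myosin heavy chain they make: *Myh4*, *Myh1* and *Myh2* belong to fast fibres of types IIB, IIX and IIA, and *Myh7* to slow fibres. Most of these proteins are made mainly in muscle fibres. DRGs lie in the openings between vertebrae, beside the muscles of the back.

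Total counts ran from 52735648 to 80348732 per library (median 75538569), and the KO PTX libraries had 54914928 and 56747335. *Gpr37l1*, the gene deleted in the KO, was at 14.6 to 35.7 FPKM in the 6 WT libraries and at 0.21 to 1.15 FPKM in the 5 KO libraries. FPKM, a fragment count per transcript length and sequencing depth, allows levels of genes of unequal length to be compared. The sensory neuron gene *Tubb3* was at 975 to 1556 FPKM and the SGC gene *Fabp7* at 84.2 to 223 FPKM, so each library had the defining genes of a DRG. In the muscle genes 3 libraries stood apart. WT control 2 and WT PTX 3 had the lowest levels, and KO control 3 had another mix of myosins than the rest. Values with a library left out are given for medians, counts and the genes followed most closely.

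The promoters of the muscle genes were read for the short letters bound by 3 factors known from muscle. These were MyoD and its relatives (the letters CAGCTG), MEF2, and the serum response factor, which binds the CArG box. Sequences were taken from RefSeq (GRCm38.p6), from 250 bases before to 50 bases after each start, and both strands were searched. The table held 24 promoters of 22 members, and 11 members had none in it. CAGCTG occurred in 13 of the 24 promoters (54.2%) and in 16.3% of all 32851 promoters. A MEF2 motif occurred in 4 of 24 (16.7%) and in 3.19% of all, and a CArG box in 3 of 24 (12.5%) and in 1.63% of all. These shares are descriptions with no test, and a match is no proof of binding. The part of these factors in the levels of the libraries was not tested. Windows of 30 bases from promoters of members described below are shown 5′ to 3′ on the strand of the gene, with the motif in capitals, so that the shared letters can be seen. The first pair holds CArG boxes, for *Acta1* (chr8:123894829-123894858, minus strand, 73 to 64 bases before the start) and *Myh4* (chr11:67237698-67237727, plus strand).
Acta1 CArG: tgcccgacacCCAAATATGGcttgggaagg
Myh4 CArG: aaagagattgCCAAAAATGGttttgccaag
The next windows hold MEF2 motifs, for *Myh4* (chr11:67237620-67237649, plus strand), *Myh1* (chr11:67199881-67199910, plus strand), *Xirp2* (chr2:67445918-67445947, plus strand) and *Ttn* (chr2:76982694-76982723, minus strand).
Myh4 MEF2: ccctgtcaaaTTATTTATAGatgacaagaa
Myh1 MEF2: acaactcaaaTTATTTATAGgagattgatt
Xirp2 MEF2: agctcagttcCTAAAAATAGgtgctaggtt
Ttn MEF2: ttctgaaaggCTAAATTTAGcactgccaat
The last windows hold CAGCTG, for the calcium store gene *Casq1* (chr1:172220073-172220102, minus strand) and the energy genes *Ckmt2* (chr13:91876975-91877004, minus strand) and *Pygm* (chr19:6384228-6384257, plus strand).
Casq1 CAGCTG: gggggaaggaacCAGCTGctgggagggagc
Ckmt2 CAGCTG: ccttcaaggacaCAGCTGggggagtctgtg
Pygm CAGCTG: gaagaagtgggtCAGCTGtgaacacacccc
The MEF2 letters in the *Myh4* and *Myh1* windows are the same, although the levels of these neighbouring genes differed widely in most libraries.

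The summed FPKM of the 33 genes was 801, 29.1 and 706 in WT controls 1, 2 and 3. It was 89.0, 276 and 13.8 in WT PTX libraries 1, 2 and 3. In the KO it was 594, 863 and 184 in controls 1, 2 and 3, and 155 and 107 in PTX libraries 2 and 3. KO control 2 was thus 62.4-fold above WT PTX 3, and the library order was the same when counts were used in place of FPKM. WT control 2 was far below the other WT controls, a 27.5-fold range within 1 group, and the WT PTX libraries spanned a 20.0-fold range. The KO controls spanned 4.70-fold and the KO PTX libraries 1.44-fold. Only the KO groups did not overlap, with both PTX libraries below all 3 controls. The SD of the log2 sum within groups was 1.97, against a log2 ratio of the groups' geometric means of -1.87 for PTX in WT and of -1.82 for PTX in KO. Of all counts, the muscle genes took 0.238% in KO control 2 (187466 counts, Wilson 95% interval 0.237% to 0.239%). In WT PTX 3 they took 0.00413% (2324 counts, Wilson 95% interval 0.00396% to 0.00430%), and these intervals cover counting error only. In bulk tissue, fewer muscle fibres and less RNA per fibre cannot be told apart, and how muscle RNA came to be in the libraries was not tested.

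**Figure D1:**
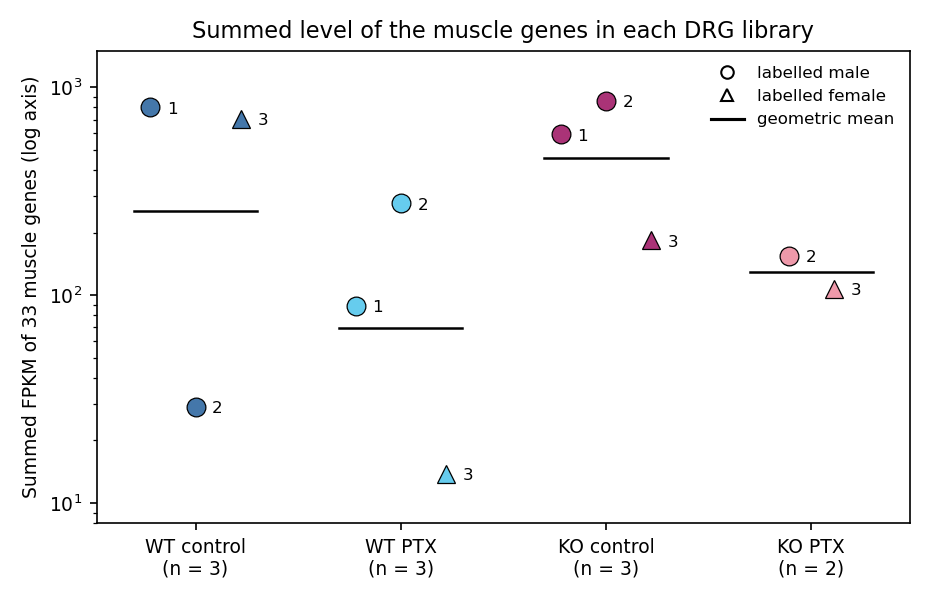
Summed FPKM of the 33 muscle genes (log axis) in each library, by group. Circles are libraries labelled male, triangles libraries labelled female, numbers are replicates and lines are geometric means. The WT groups overlap and each spans a range of 20.0-fold or more, while both KO PTX libraries (107 and 155) lie below the 3 KO controls (184 to 863).

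*Acta1*, the actin of adult skeletal muscle, was the highest of the 33 genes in 10 of the 11 libraries. It was at 168, 5.28 and 153 FPKM in WT controls 1, 2 and 3 and at 17.7, 54.6 and 0.84 FPKM in the WT PTX libraries. In the KO it was at 136, 206 and 41.7 FPKM in the controls and at 29.3 and 21.3 FPKM in PTX libraries 2 and 3. Among all 36670 genes its rank by FPKM was 126 in KO control 2 and 13478 in WT PTX 3. In WT PTX 3 the glycolytic enzyme gene *Eno3* was the highest member, at 5.45 FPKM. The number of members at 1 FPKM or more was 10 in WT control 2 and 2 in WT PTX 3, and 15 to 26 in the other 9 libraries. WT PTX 3 had the lowest value for 28 of the 33 members, for 25 of them alone and for *Myh2*, *Sln* and *Mb* tied with another library. KO control 2 had the highest for 16, WT control 1 for 8, KO control 3 for 6 and WT control 3 for 3.

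The thin filament genes had the highest summed level of the 5 roles outside WT PTX 3, up to 437 FPKM in KO control 2. In WT PTX 3 they summed to 2.66 FPKM, below the energy genes at 6.62 FPKM. *Tnnt3*, *Tnnc2* and *Tnni2* encode the 3 subunits of fast muscle troponin. *Tnnt3* was at 90.4, 2.13 and 71.5 FPKM in WT controls 1, 2 and 3 and at 7.93, 27.2 and 0.47 FPKM in WT PTX libraries 1, 2 and 3. In the KO it was at 57.6, 92.8 and 15.0 FPKM in the controls and at 17.0 and 10.9 FPKM after PTX, so that KO control 3 lay between the PTX libraries. *Tnnc2* ranged from 0.51 to 83.4 FPKM and *Tnni2* from 0.15 to 43.7 FPKM. *Actn3*, the alpha-actinin of fast fibres, ranged from 0.34 to 25.5 FPKM, and *Neb*, nebulin, which runs along the thin filament, from 0.08 to 1.69 FPKM. *Actn2*, the alpha-actinin also made in heart and slow fibres, kept to a narrow range of 0.26 to 1.27 FPKM.

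Thick filament genes summed to 2.09 FPKM in WT PTX 3 and to 203 FPKM in KO control 2, with KO control 3 at 35.9 FPKM and KO PTX 2 at 36.3 FPKM. *Myh4*, the fastest myosin heavy chain, was at 62.9, 1.87 and 61.3 FPKM in WT controls 1, 2 and 3 and at 5.83, 24.1 and 0.33 FPKM in WT PTX libraries. In KO controls 1, 2 and 3 it was at 51.0, 87.4 and 8.03 FPKM, and after PTX in the KO at 15.1 and 10.8 FPKM. KO control 3 was therefore below both KO PTX libraries for *Myh4*, unlike for *Acta1*. *Mylpf*, a light chain of fast myosin, was at 65.1, 1.63 and 54.5 FPKM in WT controls and at 5.29, 21.9 and 0.98 FPKM after PTX. In the KO it was at 51.6, 59.4 and 12.4 FPKM in controls and at 11.3 and 5.57 FPKM after PTX. *Myl1*, another light chain, was at 33.8, 0.77 and 29.6 FPKM in WT controls, at 3.0, 12.5 and 0.09 FPKM in WT PTX libraries, at 23.6, 33.2 and 5.55 FPKM in KO controls and at 4.96 and 3.98 FPKM in KO PTX libraries. For both light chains the KO groups did not overlap and the WT groups did. *Mybpc2*, the fast myosin-binding protein C, ranged from 0.23 to 16.0 FPKM, and the M-band genes *Myom2* and *Myom1* from 0.07 to 2.60 FPKM and from 0.37 to 1.57 FPKM.

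Titin and the Z disc genes were lower per length. *Ttn*, the giant spring of the sarcomere, was at 0.49, 0.02 and 0.54 FPKM in WT controls, at 0.07, 0.21 and 0.01 FPKM in WT PTX libraries, at 0.45, 0.76 and 0.17 FPKM in KO controls and at 0.12 and 0.12 FPKM in KO PTX libraries. Its transcript is so long that these levels stood for 79 to 7623 counts. *Xirp2*, an actin-binding protein of muscle attachment sites, was at 0.99, 0.03 and 0.75 FPKM in WT controls and at 0.14, 0.38 and 0.01 FPKM in WT PTX libraries. In KO controls it was at 1.06, 1.66 and 0.32 FPKM, and at 0.41 and 0.20 FPKM in KO PTX libraries, with KO control 3 again between them. The titin cap gene *Tcap* reached 10.4 FPKM and the Z disc genes *Myoz1* and *Myot* 8.34 and 3.82 FPKM. *Tcap* and *Myoz1* had a count of 0 in WT PTX 3, which allows up to 3 counts. *Smpx*, a small protein of striated muscle, had the narrowest range of all members, 0.81 to 2.75 FPKM or 3.40-fold.

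In the calcium store, *Atp2a1*, the pump SERCA1 of fast fibres, was at 64.4, 1.83 and 70.4 FPKM in WT controls and at 6.73, 25.5 and 0.29 FPKM in WT PTX libraries. It was at 48.8, 67.4 and 17.5 FPKM in KO controls and at 12.8 and 10.8 FPKM in KO PTX libraries, with no overlap between the KO groups. *Casq1*, which binds calcium inside the store, ranged from 0.83 to 15.3 FPKM, and *Trdn*, triadin, which ties it to the release channel, from 0 to 0.98 FPKM. *Ryr1*, the release channel, was at 0.84, 0.06 and 0.77 FPKM in WT controls, at 0.17, 0.37 and 0.11 FPKM in WT PTX libraries, at 0.57, 0.72 and 0.24 FPKM in KO controls and at 0.22 and 0.18 FPKM in KO PTX libraries. *Sln*, sarcolipin, a small inhibitor of the pump, was at 0 in 10 of the 11 libraries and at 0.07 FPKM (8 counts) in KO control 3. A count of 0 leaves room for up to 3 counts in each of those 10 libraries, 3.73e-06% to 5.69e-06% of their totals.

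*Ckm*, the creatine kinase that buffers ATP in muscle, had the widest range of the 27 members that were above 0 in every library. It was at 48.5, 1.81 and 42.3 FPKM in WT controls and at 4.24, 16.7 and 0.09 FPKM in WT PTX libraries. In KO controls it was at 34.4, 48.6 and 7.84 FPKM, and in KO PTX libraries at 8.10 and 6.97 FPKM. The 540-fold range rests on 16 counts in WT PTX 3, and the library with the next lowest level, WT control 2, had 426 counts. *Pygm*, which breaks down glycogen, ranged from 0.98 to 24.7 FPKM, *Eno3* from 3.62 to 30.1 FPKM and *Ampd1*, an enzyme of the purine nucleotide cycle, from 0.02 to 2.81 FPKM. *Ckmt2*, the mitochondrial creatine kinase of striated muscle, was at 1.55, 0.24 and 1.09 FPKM in WT controls, at 0.94, 1.10 and 0.04 FPKM in WT PTX libraries, at 1.59, 4.30 and 1.95 FPKM in KO controls and at 0.49 and 0.12 FPKM in KO PTX libraries. All 3 KO controls were above all other libraries for *Ckmt2*.

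**Figure D2:**
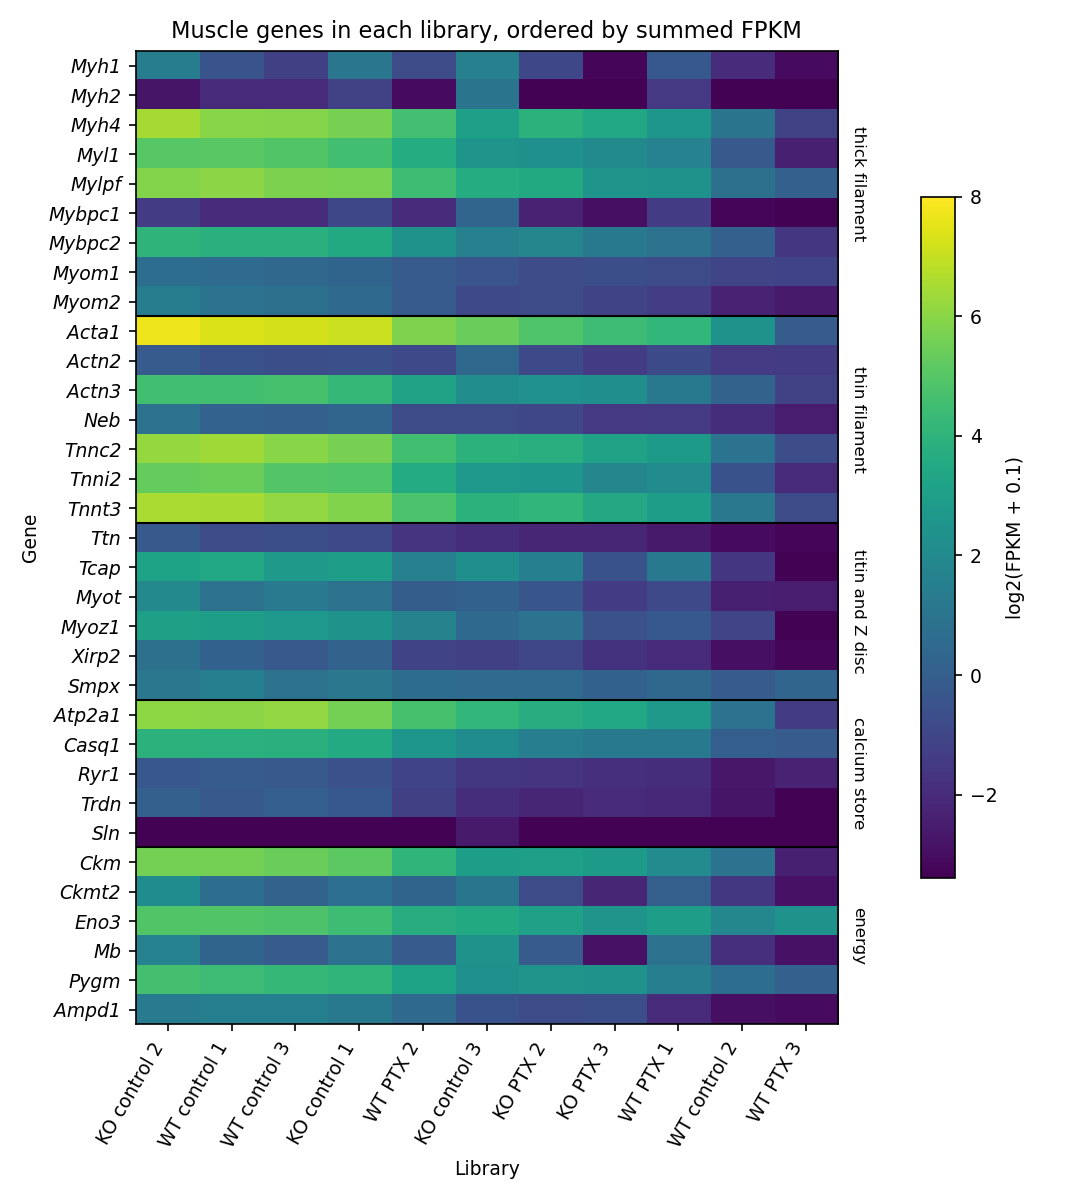
Level of each of the 33 genes, as log2(FPKM + 0.1), in each library, with libraries ordered from the highest summed FPKM (KO control 2) to the lowest (WT PTX 3) and genes grouped by role. Most rows darken from left to right, whereas *Myh1*, *Myh2*, *Mybpc1*, *Actn2*, *Sln* and *Mb* are brightest in KO control 3, the sixth column.

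The proportions of many members stayed nearly the same while the sum changed. For each library, the log2 ratio of each gene's FPKM to the summed FPKM was taken, and its SD over the 11 libraries was compared with the SD of the log2 sum itself, which was 1.98. *Mylpf* had the most constant ratio, with an SD of 0.23, followed by *Actn3* at 0.27 and *Mybpc2* at 0.28. The SD was under 0.5 for 11 of the 33 members and under 1 for 21. Part of this follows from the members being in the sum, most of all for *Acta1*, which alone was 18.1% to 23.9% of it outside WT PTX 3. Among genes with a mean of at least 1 FPKM, the SD was under 1 for 15 of 21 members and for 6 of 13070 other genes, and its median was 0.62 for these members and 1.99 for the others. The count of members with an SD under 0.5 was 20 without WT PTX 3.

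Genes outside the list whose ratio to the sum was most constant were *Mylk2*, *Hrc*, *Mylf-ps*, *Des*, *Ankrd23*, *Car3*, *Pgam2*, *Apobec2*, *Cox6a2* and *Tpm2*, in this order, with SDs from 0.84 to 1.25 over the 11 libraries. *Mylk2* is the myosin light chain kinase of skeletal muscle and was at 4.68 FPKM in WT control 1 and listed at 0 in WT PTX 3. *Pgam2*, the muscle phosphoglycerate mutase, was at 18.3 FPKM in KO control 2 and at 1.96 FPKM in WT PTX 3. A list of 31 other muscle fibre genes had a summed level of 12.7 FPKM in WT PTX 3 and 58.6 FPKM in KO control 2, a 4.63-fold range.

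The least constant members were *Myh2*, with an SD of 2.33, *Myh1* at 1.85, *Mb* at 1.72 and *Actn2* at 1.61. *Sln* had an SD of 2.18, but at 0 FPKM in 10 libraries its ratio is the added 0.01 over the sum, and *Myh2* was at 0 in 4. Some members kept a floor where the others nearly vanished. In WT PTX 3, *Eno3* alone was 39.4% of the summed FPKM and *Smpx* 8.24%, against 3.45% and 0.243% in KO control 2. *Smpx*, *Myom1*, *Actn2* and *Eno3* had the narrowest ranges over the libraries, 3.40-fold, 4.24-fold, 4.88-fold and 8.30-fold. Whether these floors come from muscle or from other cells of the ganglion was not tested.

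**Figure D3:**
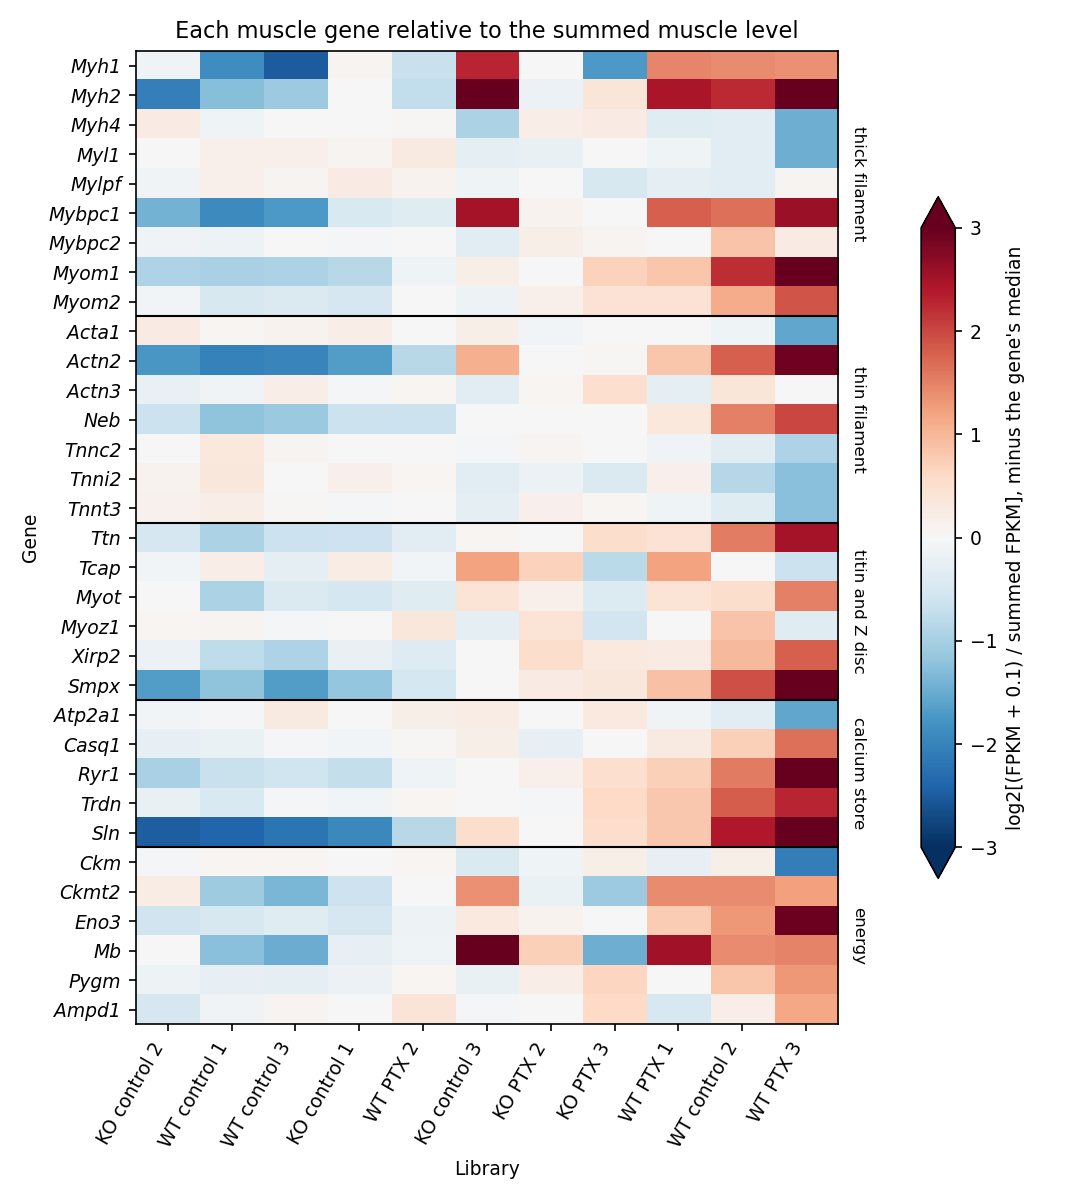
Each gene relative to the summed muscle level, as log2 of (FPKM + 0.1) over the summed FPKM minus the gene's median over the 11 libraries, with libraries ordered by the sum. Pale rows such as *Mylpf*, *Actn3* and *Mybpc2* kept their proportion, red cells at the right mark *Smpx*, *Eno3* and *Myom1* in WT PTX 3, and red cells in the sixth column mark *Myh1*, *Myh2*, *Mybpc1* and *Mb* in KO control 3. The added 0.1 FPKM by itself makes genes with very low values, such as *Sln*, red at the right.

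The mix of myosin heavy chains set KO control 3 apart, a feature noticed after the values were seen. *Myh1* was at 0.64, 0.16 and 0.32 FPKM in WT controls, at 0.73, 0.48 and 0.02 FPKM in WT PTX libraries, at 2.0, 2.60 and 2.89 FPKM in KO controls and at 0.42 and 0.01 FPKM in KO PTX libraries. All 3 KO controls were above the other 8 libraries for this gene. *Myh2* was at 0.14, 0 and 0.14 FPKM in WT controls, at 0.25, 0.02 and 0 FPKM in WT PTX libraries, at 0.33, 0.05 and 1.90 FPKM in KO controls and at 0 in both KO PTX libraries. KO control 3, with 1124 counts, stood alone for *Myh2*, and the next library had 192. *Myh7*, the slow myosin and no member, was at 0.02, 0.01 and 0.01 FPKM in WT controls, at 0.01, 0.02 and 0.01 FPKM in WT PTX libraries, at 0, 0.01 and 0.35 FPKM in KO controls and at 0.04 and 0.03 FPKM in KO PTX libraries.

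Of the summed FPKM of these 4 myosins, *Myh4* made up 61.0% in KO control 3, *Myh1* 21.9%, *Myh2* 14.4% and *Myh7* 2.66%, on 4007, 1522, 1124 and 252 counts. In the other 10 libraries *Myh4* made up 85.5% to 99.6%, and the lowest of these was WT PTX 1, where *Myh1* made up 10.7% and *Myh2* 3.67%. The WT PTX 3 shares rest on 119 counts of *Myh4* and 8 of *Myh1*. Reads of these neighbouring genes on chromosome 11 can be hard to place. Of the 75-base windows in their transcripts, 15.8% for *Myh1*, 13.9% for *Myh2* and 9.68% for *Myh4* also occur in another myosin gene. *Myl1* shares 8.08% of its windows with the pseudogene *Mylf-ps*, *Acta1* 0.394% with *Gm47692* and *Actb*, and the other 28 members share none.

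Some other genes of oxidative or slow fibres were highest in KO control 3 too, while *Ckmt2* was highest in KO control 2. *Mb*, myoglobin, which stores oxygen, was at 1.11, 0.18 and 0.81 FPKM in WT controls, at 1.74, 0.81 and 0.04 FPKM in WT PTX libraries, at 1.69, 3.01 and 5.37 FPKM in KO controls and at 0.82 and 0.04 FPKM in KO PTX libraries. It was 2.93% of the summed muscle FPKM in KO control 3 and 0.0372% to 1.96% elsewhere. *Mybpc1*, the slow myosin-binding protein C, was at 1.16 FPKM in KO control 3 and at 0 to 0.42 FPKM elsewhere. Of 9 slow fibre genes outside the list, 6 had their highest value in KO control 3, among them the slow light chains *Myl3* at 0.49 FPKM and *Myl2* at 0.40 FPKM. Another 2 had it in WT control 1 and 1 in WT control 2. All of these are low levels, and the 9 genes summed to 4.76 FPKM in KO control 3, 4.17 FPKM in WT control 1 and 1.78 to 3.02 FPKM in the other libraries. In contrast, *Myh4* and the fast troponins were lower in this library than in the other KO controls. *Tnnc1* and *Casq2*, the 2 slow genes that entered the tests below, had log2 fold changes of -0.31 and -0.38 for KO over WT controls, neither called.

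**Figure D4:**
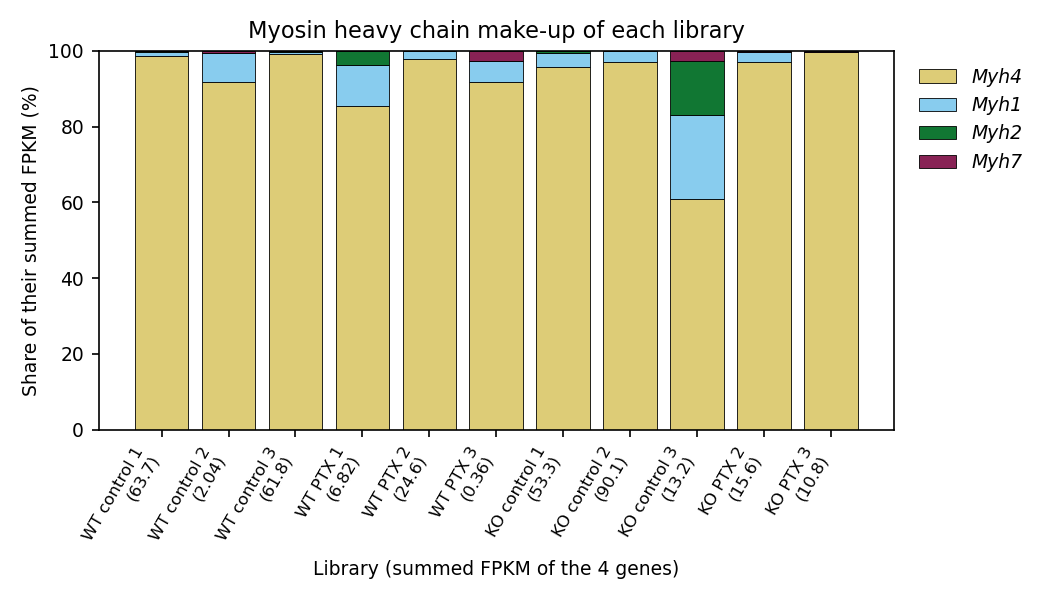
Share of 4 myosin heavy chain genes in their summed FPKM (percent, bars from 0 to 100) in each library, with the summed FPKM of the 4 genes in parentheses. *Myh4* fills 85.5% or more of each bar except that of KO control 3, where it is 61.0%.

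Each comparison of groups was tested with edgeR's quasi-likelihood test over the 15087 genes with a mean of at least 0.5 FPKM, with labelled sex in the model and Benjamini-Hochberg adjustment over these genes. Of the members, 27 entered the test, and *Sln*, *Myh2*, *Mybpc1*, *Ttn*, *Trdn* and *Ryr1* were below that level. *Myh1* and *Actn2* reached that level only through the KO controls, with means of 2.50 and 0.88 FPKM there. In the other groups their means were 0.215 to 0.41 FPKM and 0.37 to 0.47 FPKM. *Neb* and *Xirp2* also passed the filter only with the KO controls, the group where their means were highest. No member passed an adjusted p of 0.05 in any of the 6 comparisons, and none did with DESeq2 or limma either. DESeq2 called 2.05% of all genes after PTX in WT, 0.192% after PTX in KO, 0.278% for KO against WT controls, 0.0663% for KO against WT after PTX, 0.0795% for the difference between the PTX effects and 0.822% for the sex label. Many members moved together from library to library, so counts of members below 0 or not overlapping are not separate results. Fold changes below are on the log2 scale.

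After PTX in WT mice, members had lower fitted levels, with a wide error. The median log2 fold change of the 27 members was -2.31, with 26 below 0 and *Mb* at 0.07, against a median of -0.01 over all genes tested. By limma the median was -1.17 on log2(FPKM + 1) and -1.57 on log2(FPKM + 0.1), and with no sex term it was -1.75. Called were 0 of 27 members by edgeR, where 0.00663% of all genes were called, and 3 of 27 had an unadjusted p under 0.05 (*Neb*, *Mybpc2* and *Tnnc2*), where 13.5% of all genes did. *Neb* was at 1.03, 0.17 and 0.96 FPKM in WT controls and at 0.26, 0.48 and 0.08 FPKM in WT PTX libraries, a log2 fold change of -1.67 (SE 0.70, edgeR adjusted p = 0.357). *Mybpc2* was at 14.3, 0.96 and 14.2 FPKM in WT controls and at 1.68, 5.43 and 0.23 FPKM after PTX (-2.55, SE 1.11, edgeR adjusted p = 0.365). WT control 2 was below WT PTX 1 and 2 for both genes, so the groups overlapped. *Acta1* had a log2 fold change of -2.79 and *Myh4* of -2.89, and the median SE of the members was 1.17. Without WT PTX 3 these were -1.83 and -1.82, and *Neb* and *Mybpc2* were at -1.18 and -1.74. Without WT control 3 these 4 genes were at -1.74, -1.55, -0.88 and -1.43. In FPKM, 0 of 33 members had WT groups that did not overlap in the lower direction, where 7.37% of all genes tested did, and 0 in the higher direction, where 6.81% did. Of 31 other muscle genes, *Tnni1* and *Myl3*, both short of the filter, did not overlap in the lower direction. The median of the members was -1.38 without WT control 3, -1.50 without WT PTX 3 and -3.15 without WT control 2.

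After PTX in KO mice, the 2 PTX libraries were below the controls for most members. All 27 members tested had a log2 fold change below 0, with a median of -1.56, against -0.01 over all genes. It was -1.35 and -1.45 by limma on the same scales and -2.00 with no sex term. By edgeR 0 of 27 were called, where 0.00663% of all genes were, and 4 (*Myh1*, *Ckmt2*, *Actn2* and *Mb*) had an unadjusted p under 0.05, where 4.32% of all genes did. Of these, *Myh1* and *Actn2* entered the test only through the KO controls, the group where they were high. Their unadjusted p-values are therefore no support for a drop after PTX. *Myh1* had a log2 fold change of -3.99 (SE 1.19), *Mb* of -3.24 (SE 1.36), *Ckmt2* of -3.06 (SE 1.05) and *Actn2* of -1.25 (SE 0.47), each with an edgeR adjusted p of 0.999. Without KO control 3 they were -3.03, -2.10, -2.79 and -0.78, and the median of the members was -2.04. Without KO PTX 2, *Myh1* was at -6.84 and *Mb* at -6.14, and without KO PTX 3 at -2.95 and -2.09. The FPKM of the KO groups did not overlap, with PTX lower, for 23 of the 33 members, 18 of them among the 27 tested, where 10.4% of all genes tested did so. With PTX higher it was 0 of 33, where 11.3% of all genes tested did so. The 10 members that overlapped included *Myh4*, *Ckm*, *Tnnt3* and *Actn3*, for which KO control 3 reached down into the PTX range. The count was 32 without KO control 3, 27 of them among the 27 tested, where 14.4% of all genes tested did so, and *Sln* was the exception. The 18 include *Myh1*, *Actn2* and *Neb*, and the 27 also *Xirp2*, which passed the filter only with the KO controls. For these genes non-overlap is no support for a drop after PTX. Among 31 other muscle genes, 17 of them past the filter, 15 did not overlap with PTX lower. Of these, *Cacna1s*, *Trim63*, *Cox8b* and *Klhl40* were short of the filter, and the shares given for all genes cover tested genes only. In the same libraries the summed level of 9 spinal cord genes was 9.92 and 22.5 FPKM in KO PTX 2 and 3, against 2.77 to 4.33 FPKM in KO controls. The 5 bone marrow genes and 6 red cell genes tested were all below 0 after PTX, with medians of -1.14 and -0.37 in the KO and of -1.06 and -0.50 in WT, and 0 were called by edgeR. The 6 smooth muscle genes tested were below 0 after PTX too, with medians of -0.11 in the KO and -0.27 in WT, where *Actg2* had an unadjusted p under 0.05 by edgeR. All 6 Schwann cell genes were below 0 after PTX in the KO (median -0.27, 0 called, *Ncmap* with an unadjusted p under 0.05 by edgeR). In WT 5 of these 6 were below 0 (median -0.10). The 3 fat genes tested were below 0 after PTX with medians of -1.31 in the KO and -0.46 in WT (0 called by edgeR), and the sum of the 8 fat genes was 3.71 and 3.82 FPKM in KO PTX libraries against 5.47 to 13.0 FPKM in KO controls, with no overlap. The part of other tissues in the muscle values was not tested.

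Between KO and WT controls, members lay on both sides of 0. The median log2 fold change of KO over WT was -0.17, with 17 members below 0 and 10 above, and it was 0.46 by limma on log2(FPKM + 1), 0.78 on log2(FPKM + 0.1) and 0.08 with no sex term. Called were 0 of 27 members by edgeR, where 0.00663% of all genes were, and 2 (*Myh1* and *Actn2*) had an unadjusted p under 0.05, where 7.54% of all genes did. Both entered the test only through the KO controls, the group where they were high, so these p-values are no support for a difference. *Myh1* had a log2 fold change of 2.89 (SE 0.93, edgeR adjusted p = 0.657), *Mb* of 2.36 (SE 1.07, edgeR adjusted p = 0.657) and *Actn2* of 0.92 (SE 0.40, edgeR adjusted p = 0.657). Without KO control 3 they were 1.55, 0.79 and 0.47. Groups did not overlap, with the KO higher, for 4 of 33 members (*Mb*, *Mybpc1*, *Ckmt2* and *Myh1*), 3 of them among the 27 tested, where 4.55% of all genes tested did so. With the KO lower it was 0 of 33, where 4.73% did so. Without KO control 3 there were 6 with the KO higher, these 4 with *Neb* and *Xirp2*, 5 of them among those tested, where 7.40% of all genes tested did so. Both counts hold *Myh1*, and the second *Neb* and *Xirp2*, which passed the filter only with the KO controls. For these genes non-overlap is no support for a difference. The median was 0.84 without WT control 3, 0.26 without KO control 3, 0.07 without WT control 1 and -0.90 without WT control 2. Of the genes of other tissues tested, 5 of 5 from bone marrow (median -0.75) and 5 of 6 from red cells (median -0.55) were below 0. So were 3 of 4 from spinal cord (median -0.93), while 3 of 3 fat genes were above 0 (median 0.55). EdgeR called 0 of them, and their part in the muscle values was not tested.

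Between KO and WT after PTX, the median log2 fold change of the members was 0.40, with 19 above 0 and 8 below. By edgeR 0 of 27 were called, where 0.0133% of all genes were, and 0 had an unadjusted p under 0.05, where 3.55% of all genes did. No member had groups that did not overlap, where 10.7% of all genes tested did so in the higher and 9.58% in the lower direction. By limma on log2(FPKM + 1) the median was 0.20, on log2(FPKM + 0.1) 0.90, and with no sex term 0.01. The KO PTX sums of 155 and 107 lay inside the WT PTX range of 13.8 to 276. In this comparison the 4 spinal cord genes tested were all above 0 (median 2.49, 0 called, *Gfap* and *Slc1a2* with an unadjusted p under 0.05 by edgeR) and the 5 bone marrow genes tested all below 0 (median -0.82, 0 called). The 6 red cell genes (median -0.43) and the 3 fat genes tested (median -0.26) were all below 0 too, with 0 called. The part of these tissues in the muscle values was not tested. Without WT PTX 3 the median was -0.35, without WT PTX 2 it was 1.54.

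The difference between the PTX effects of KO and WT, the interaction term, had a median of 0.87 over the members, of -0.11 by limma on log2(FPKM + 1), of -0.02 on log2(FPKM + 0.1) and of -0.19 with no sex term. Called were 0 of 27 by edgeR, where 0.00663% of all genes were, and only *Myh1* had an unadjusted p under 0.05, where 6.3% of all genes did. As this gene entered the test only through the KO controls, where it was high, its p-value is no support for an interaction. *Myh1* had an interaction of -3.71 (SE 1.41, edgeR adjusted p = 0.724), *Mb* of -3.30 (SE 1.63) and *Ckmt2* of -2.20 (SE 1.32), opposite in sign to *Myh4* at 1.61 (SE 2.32). Without KO control 3 the interaction of *Myh1* was -2.28, and without KO PTX 2 it was -6.72. The 4 spinal cord genes tested had a median interaction of 3.42 (0 called by edgeR, 3 with an unadjusted p under 0.05), and their part in the muscle values was not tested. Without WT PTX 3 the median was -0.26. All comparisons with a shared control group use the same libraries of it, so their values are set side by side and not as separate evidence.

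Libraries labelled female had lower fitted levels than those labelled male, a median of -1.10 with 26 of 27 members below 0 and *Actn2* at 0.04. By limma the median was -0.59 on log2(FPKM + 1) and -1.02 on log2(FPKM + 0.1). The 5 bone marrow genes tested were all below 0 here as well (median -1.25, 0 called, *Camp*, *S100a8* and *S100a9* with an unadjusted p under 0.05 by edgeR), and their part in the muscle values was not tested. Below 0 were also 6 of 7 SGC genes (median -0.06) and 9 of 12 sensory neuron genes (median -0.04), with 0 called. Of these, *Fabp7* (-0.60), *Sox10* (-0.20), *Calca* (-0.32) and *Tubb3* (-0.25) had an unadjusted p under 0.05 by edgeR. By edgeR 0 of 27 were called, where 0.0398% of all genes were, and 0 had an unadjusted p under 0.05, where 8.44% of all genes did. WT control 3, labelled female, had the third highest sum of all libraries, and WT PTX 3, KO control 3 and KO PTX 3 had the lowest of their groups. The median was -0.44 without WT PTX 3 and -2.10 without WT control 3.

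**Figure D5:**
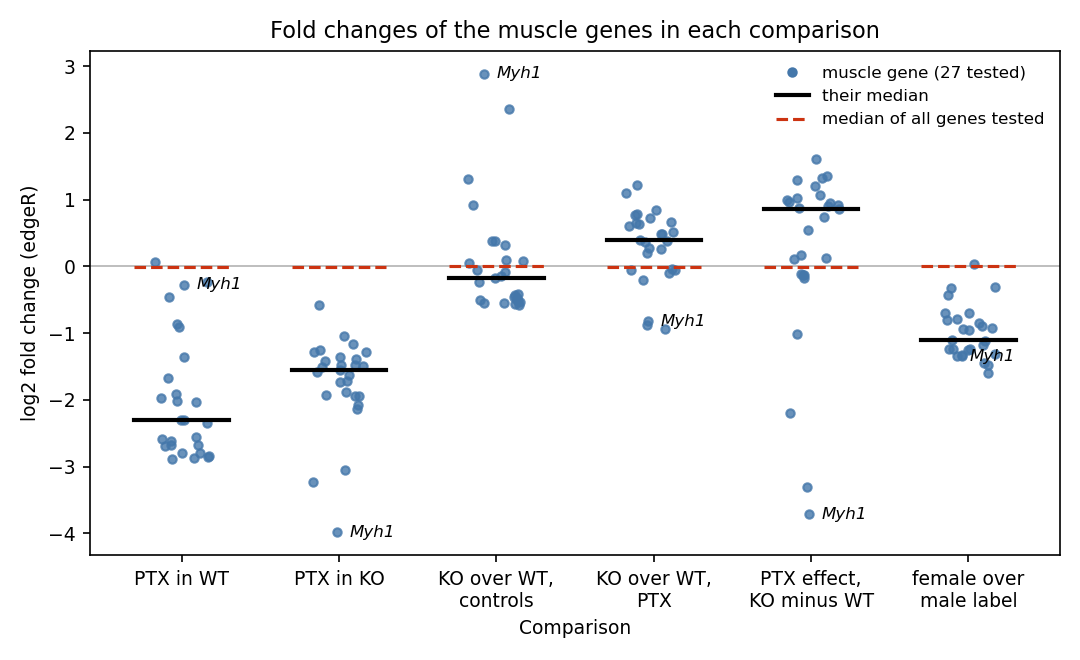
log2 fold changes (edgeR) of the 27 muscle genes tested in each of the 6 comparisons, with their median (black line) and the median of all 15087 genes tested (red dashed line). The members lie mostly below 0 for PTX in both genotypes (medians -2.31 and -1.56) and for the female label (-1.10), and *Myh1* and *Mb* lie farthest from the members' median for PTX in KO, for KO over WT controls and for the interaction.

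Genes of other tissues were set beside the muscle genes. Of the heart genes, *Myh6* was at 0.52 to 0.70 FPKM and *Tnnt2* at 0 to 0.03 FPKM. *Actc1*, an actin of heart that skeletal muscle also makes at low level, was at 6.05 FPKM in WT control 3 and 6.19 FPKM in KO control 1 but at 0.93 FPKM in WT control 1. Genes of muscle precursors were low as well, *Pax7* at 0 to 0.02 FPKM and *Myf6* at 0 to 1.15 FPKM, with the highest value in KO control 2. The summed level of 7 smooth muscle genes was 21.5 to 39.2 FPKM, a 1.82-fold range against 62.4-fold for the skeletal muscle genes. The 12 sensory neuron genes summed to 5667 to 6810 FPKM, a 1.2-fold range, the 7 SGC genes to 1076 to 1513 FPKM and the 6 Schwann cell genes to 1230 to 2165 FPKM. Of the 8 fat genes, the sum was 13.6 FPKM in WT control 3 and 13.0 FPKM in KO control 1, both high in muscle genes, but 3.75 FPKM in WT control 1, and 1.84 FPKM in WT PTX 3.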

How the data were processed

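RNA was purified from mouse DRGs, and poly(A) libraries were made with a stranded kit. The submitters' processing notes name cutadapt, FastQC, HISAT2, StringTie and mm10, with versions, and whether strand was used in counting, not given in the sources used here. The authors deposited FPKM values, scaled for transcript length and library size and given to 2 decimals, and estimated counts with no normalization. Columns were matched to libraries by their descriptions. The titles number the KO PTX libraries 1 and 2 and the descriptions 2 and 3, which were used. Members and lists were chosen with earlier results of these data known.

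Members were summed per library in FPKM. Ratios used FPKM + 0.01. Estimated counts, rounded to whole numbers, were tested with edgeR 4.0.16 (R 4.3.3; quasi-likelihood test, TMM scaling, Benjamini-Hochberg) on all 11 libraries with labelled sex as covariate and genes with a mean of at least 0.5 FPKM. Replicate 3 is the female label in each group, so sex and this number cannot be told apart. Alternatives were DESeq2 1.42.0, limma 3.58.1 on log2(FPKM + 1) and log2(FPKM + 0.1), other scaling, no filter, no sex term, the replicate number as a block, and each library left out. Tables were handled in Python 3.11.15 with pandas 2.3.3. Named genes were a set of 15 with values in each library, the members with extreme ranges or ratios, any member past the threshold, and the 10 most alike other genes; the members with an unadjusted p under 0.05 were added after their values were seen. In GENCODE M21 (GRCm38), 19 members overlap a gene on the other strand and 5 one on their own strand, and reads of such pairs may be shared.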

Additional observations from a re-analysis of the deposited data

How the results depend on the processing

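No member was called in any of the 6 comparisons under any of 8 other settings (6 for the sex label, which the settings with no sex term and with the replicate block do not test) or with any of the 11 libraries left out, and the lowest edgeR adjusted p was 0.0630, for *Eno3* in PTX in WT without WT control 2. In 15 pairs of gene and comparison followed over 19 alternatives, no direction changed, but sizes did. By limma on log2(FPKM + 1), *Myh1*, *Ckmt2* and *Actn2* were at -1.50, -1.35 and -0.45 after PTX in KO in place of -3.99, -3.06 and -1.25, and *Neb* at -0.40 after PTX in WT in place of -1.67. Over all genes tested, DESeq2 called 309 genes after PTX in WT, 29 after PTX in KO, 42 for KO against WT controls, 10 for KO against WT after PTX, 12 for the interaction and 124 for the sex label, against 1, 1, 1, 2, 1 and 6 by edgeR. With no filter edgeR called 2 for PTX in WT and 14 for the sex label. For PTX in WT the count was 0 by limma with both pseudocounts and 0 with no sex term. By the mean of log2(FPKM + 1) over the members, which changes both the weighting and the pseudocount, the range over libraries was 7.15-fold in place of 62.4-fold.

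Leaving out each library, edgeR called 0 to 30 genes after PTX in WT and 1 to 7 after PTX in KO, 1 to 4 for KO against WT controls, 2 to 7 for KO against WT after PTX, 1 to 6 for the interaction and 5 to 12 for the sex label. The 30 genes were called without WT control 3. The range of the member sum was 29.7-fold to 62.4-fold, 29.7-fold without WT PTX 3, and 9 to 20 members had a ratio SD under 0.5. In alternatives chosen after seeing the data, 23 to 32 members (18 to 27 of those tested) did not overlap for PTX in KO, where 10.4% to 31.9% of all genes tested did so. For KO over WT controls it was 4 to 6 members (3 to 5 of those tested), where 4.55% to 17.0% did so. Both counts of tested members include genes that passed the filter only with the KO controls. The median of the members ran from -3.29 to -1.38 after PTX in WT and -2.04 to -1.20 after PTX in KO, -0.90 to 0.84 for KO over WT controls, -0.35 to 1.54 for KO over WT after PTX, -0.26 to 1.84 for the interaction and -2.10 to -0.44 for the sex label. The cause of these shifts was not tested. Correlations of deviations between same-numbered libraries were -0.23 to 0.15, so the numbers were not taken to pair libraries, beyond the sex label that number 3 carries. With the replicate block, the counts of calls were the same and the medians were -2.41, -1.58, -0.21, 0.45 and 0.94 for the first 5 comparisons.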

Other observations

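Genes of bone marrow and blood also varied between libraries. The summed level of 7 bone marrow genes was 79.3 FPKM in WT control 2, which was low in muscle genes, 72.9 FPKM in KO control 1 and 7.72 FPKM in KO control 3. The 6 red cell genes summed to 295 FPKM in WT control 3 and 71.8 FPKM in KO control 2, the library with the highest muscle sum. The 7 bone and cartilage genes kept to 5.75 to 10.1 FPKM. The spinal cord genes were highest in KO PTX 3 at 22.5 FPKM, with *Mobp*, a myelin gene of the central nervous system, at 6.11 FPKM there and at 0.04 to 1.57 FPKM in the other libraries.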
